A study of Arabidopsis thaliana with 24 samples.

Results

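The transcriptomes of ein2/ore3 and ahk3/ore12 leaves after 1 d in the dark (1 DAT, days after treatment) were compared directly. The comparison used the arrays whose titles name either mutant at day 1, which are 4 of the 24 arrays of the series with 2 biological replicates per mutant, and ran over all 32627 genes on the array. ein2/ore3 carries a loss-of-function allele of EIN2, and ahk3/ore12 a gain-of-function mutation of the cytokinin receptor gene AHK3. Both are Arabidopsis thaliana lines and were studied beside the wild type Col. All plants were 21 d old and had grown under 16 h light and 8 h dark. The third or the fourth leaf, at 12 d after emergence (DAE), was detached and floated on 3 mM MES solution in the dark. Leaves at 0 DAT were those taken before darkness, and each genotype has arrays at 0, 1, 2 and 3 DAT. Detachment and floating were thus shared by both mutants and Col. Each mutant was represented by 1 allele, and how many leaves or plants went into a replicate is not given in the sources used here, so that p-values measure only the spread between these samples.

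Ethylene promotes leaf senescence and cytokinin delays it. In the ethylene pathway, receptors at the endoplasmic reticulum act with the kinase CTR1 to keep the pathway off, and EIN2 passes the signal on to the nuclear factors EIN3 and EIL1. Cytokinin is perceived by histidine kinases such as AHK3, which pass a phosphate through AHP proteins to type-B response regulators. These activate the type-A response regulators, which are rapid cytokinin response genes and dampen the pathway. Both mutants are known for delayed leaf yellowing, and the comparison asks how their transcriptomes differ soon after darkening.

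Values are log2 intensities per gene, and differences are ein2/ore3 minus ahk3/ore12, so that 1 unit is a 2-fold difference in intensity and a negative value means a higher level in ahk3/ore12. The 4 arrays had medians between 9.12 and 9.14, and replicates correlated across genes at Pearson's r of 0.995 for ein2/ore3 and 0.989 for ahk3/ore12. The median size of the difference between replicates was 0.13 for ein2/ore3 and 0.19 for ahk3/ore12. The ein2/ore3 replicates were thus somewhat closer to each other. EIN2 (AT5G03280) read 13.43 and 13.53 on the ein2/ore3 arrays and 13.72 and 13.71 on those of ahk3/ore12, a difference of -0.24 (adjusted p = 0.156, 95% interval -0.43 to -0.04). AHK3 (AT1G27320) had levels of 12.86 and 12.85 in ein2/ore3, compared with 12.61 and 12.91 in ahk3/ore12, a difference of 0.10 (adjusted p = 0.66, 95% interval -0.14 to 0.33). Neither transcript passed the test, although EIN2 did with array weights (adjusted p = 0.0451), without moderation (adjusted p = 0.0387) or with an intensity trend (adjusted p = 0.0493), and the level of a mutated transcript is no check of these labels.

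At 1 DAT, 3047 genes differed between the mutants in limma at a false discovery rate (FDR) under 0.05, which is 9.34% of all genes tested. Of these, 2291 genes (7.02%) were higher in ein2/ore3 and 756 genes (2.32%) were higher in ahk3/ore12. Such genes are referred to as called. Counts in the gene lists below stand beside these shares of all genes. The called differences had a median of 0.95 among genes higher in ein2/ore3 and -0.80 among genes higher in ahk3/ore12. At sizes of at least 2 the numbers were 212 and 106, and at sizes of at least 4 they were 14 and 15. The imbalance towards ein2/ore3 was present among the many moderate differences and not among the largest. On every called gene both arrays of 1 mutant lay beyond both arrays of the other, as they did on 59.4% of all genes. Fewer genes were called when an array was left out, namely 1303 without ein2/ore3 replicate 1, 1704 without ein2/ore3 replicate 2, 1723 without ahk3/ore12 replicate 1 and 1568 without ahk3/ore12 replicate 2. Between 69.1% and 82.5% of these calls were higher in ein2/ore3, against 75.2% with all arrays.

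**Figure D1:**
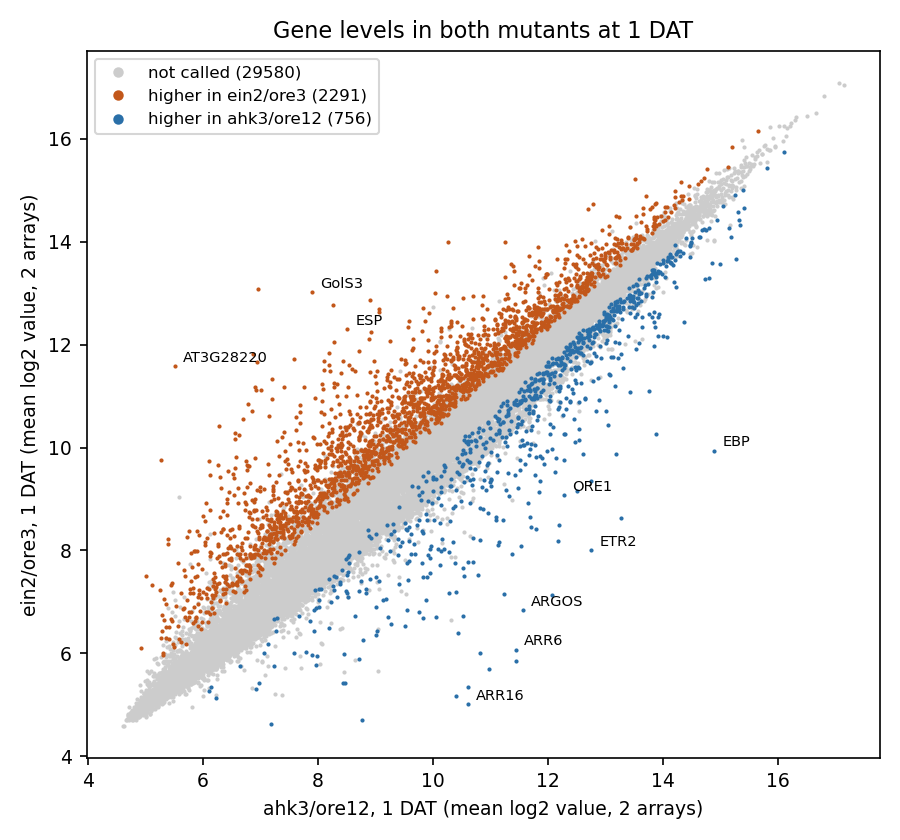
Mean log2 value of each of 32627 genes in ahk3/ore12 (x axis) and ein2/ore3 (y axis) at 1 DAT, 2 arrays each, coloured by the limma call at FDR under 0.05. The 2291 genes higher in ein2/ore3 lie above the diagonal, mostly close to it, while ARR16, ARR6, ARGOS, ETR2 and EBP lie far below it.

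Genes of ethylene perception and signalling were lower in ein2/ore3. Of 12 measured members, 7 were higher in ahk3/ore12 and 0 in ein2/ore3, with a median difference of -0.73 beside -0.045 over all genes. ETR2 (AT3G23150), an ethylene receptor, measured 7.92 and 8.11 (ein2/ore3) and 12.84 and 12.66 (ahk3/ore12), a difference of -4.74 (SE 0.24, adjusted p = 3.49e-08). Both ein2/ore3 arrays lay far below both ahk3/ore12 arrays, and Col at 12.81 and 12.93 lay beside ahk3/ore12. ERS2 (AT1G04310), another receptor, stood at 8.57 and 8.35 in ein2/ore3 against 11.86 and 11.56 in ahk3/ore12, a difference of -3.25 (SE 0.256, adjusted p = 1.67e-06). Its arrays were separated in the same order. The receptor ERS1 differed by -1.38 (adjusted p = 3.71e-06) and CTR1, the kinase that represses the pathway, by -1.52 (adjusted p = 5.88e-07). RTE1, a partner of the receptor ETR1, differed by -0.74 (adjusted p = 0.00133). EBF1 and EBF2, F-box proteins that target EIN3 for degradation, differed by -0.72 (adjusted p = 0.000489) and -1.28 (adjusted p = 3.28e-05). The products of all 7 genes are known as receptors of ethylene or as brakes on its pathway. ETR1 (0.13, adjusted p = 0.769) and the transcription factor genes EIN3 (-0.07, adjusted p = 0.7) and EIL1 (-0.28, adjusted p = 0.115) did not pass the test. Leaving out any 1 of the 4 arrays left 7 calls in this list.

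Ethylene response factors and growth genes held some of the largest differences. EBP (AT3G16770), an ethylene response factor also named RAP2.3, read 9.68 and 10.20 on the ein2/ore3 arrays and 14.85 and 14.93 on those of ahk3/ore12, a difference of -4.95 (SE 0.179, adjusted p = 1.29e-09). Col stood at 14.86 and 14.80, beside ahk3/ore12 and well above both ein2/ore3 arrays. Of 15 listed ethylene response genes, 4 were higher in ahk3/ore12 and 1 in ein2/ore3, with a median difference of -0.94. With the replicate number as a block, 7 were called higher in ahk3/ore12 and 2 in ein2/ore3. ERF1B, an activator of defence genes, had levels of 6.18 and 6.53 in ein2/ore3, compared with 9.39 and 8.65 in ahk3/ore12, a difference of -2.67 (SE 0.328, adjusted p = 0.000111). RAV1 was the exception, higher in ein2/ore3. It differed by 1.45 (adjusted p = 7.9e-05), while RAP2.6 differed by -2.36 (adjusted p = 0.000118) and ERF2 by -1.78 (adjusted p = 0.000362). RAP2.6 is among the stress genes that the study picked from these same arrays. The 3 genes related to ARGOS that follow, whose products promote organ growth, are given for the size of their differences, so their shared direction is a description. ARGOS (AT3G59900) measured 6.75 and 6.92 (ein2/ore3) and 11.80 and 11.34 (ahk3/ore12), a difference of -4.74 (SE 0.342, adjusted p = 8.22e-07). ARL (ARGOS-like, AT2G44080) stood at 8.80 and 8.45 in ein2/ore3 against 13.46 and 13.09 in ahk3/ore12, a difference of -4.65 (SE 0.292, adjusted p = 2.37e-07). ORS1 (ORGAN SIZE RELATED 1, AT2G41230) read 7.0 and 7.25 on the ein2/ore3 arrays and 12.67 and 11.46 on those of ahk3/ore12, a difference of -4.94 (SE 0.453, adjusted p = 7.04e-06). In each of the 3, every ein2/ore3 array lay below every ahk3/ore12 array, with the wider spread in ahk3/ore12 for ORS1.

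Genes of ethylene synthesis were called mainly in the other direction. Of 13 measured, 5 were higher in ein2/ore3 and 1 in ahk3/ore12, with a median of 0.64, and leaving out 1 array left between 2 (without ein2/ore3 replicate 1 or ahk3/ore12 replicate 1) and 4. ACS4 (AT2G22810), which makes the ethylene precursor ACC, had levels of 10.87 and 9.60 in ein2/ore3, compared with 6.72 and 6.53 in ahk3/ore12, a difference of 3.61 (SE 0.32, adjusted p = 5.39e-06). The ACC synthase gene ACS8 measured 13.98 and 13.81 (ein2/ore3) and 11.99 and 11.66 (ahk3/ore12), a difference of 2.07 (SE 0.209, adjusted p = 1.72e-05). For both genes the lower ein2/ore3 array lay above the higher ahk3/ore12 array by more than the spread within either mutant. ACS5 differed by 1.11 (adjusted p = 0.0115), ACS11 by 0.95 (adjusted p = 0.0478) and the ACC oxidase gene AT1G12010 by 0.70 (adjusted p = 0.00543). The ACC oxidase gene ACO4 was the member lower in ein2/ore3, with a difference of -1.41 (adjusted p = 0.000279). The call of ACS5 was lost without any 1 of the 4 arrays (adjusted p up to 0.0873). The call of ACS11 was lost without ahk3/ore12 replicate 1 or ahk3/ore12 replicate 2 or ein2/ore3 replicate 1 (adjusted p up to 0.598). The call of AT1G12010 was lost without ahk3/ore12 replicate 1 or ein2/ore3 replicate 1 (adjusted p up to 0.0854).

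The type-A response regulators, the direct cytokinin response genes, were higher in ahk3/ore12. Of 10 measured, 7 were higher in ahk3/ore12 and 0 in ein2/ore3, with a median difference of -1.50. ARR16 (AT2G40670) stood at 5.07 and 4.96 in ein2/ore3 against 10.54 and 10.68 in ahk3/ore12, a difference of -5.60 (SE 0.409, adjusted p = 9.33e-07). Its Col arrays, at 9.12 and 7.72, lay between those of the mutants. ARR6 (AT5G62920) read 6.21 and 5.94 on the ein2/ore3 arrays and 11.76 and 11.13 on those of ahk3/ore12, a difference of -5.37 (SE 0.289, adjusted p = 4.53e-08). Its Col arrays, at 5.40 and 5.54, lay below those of both mutants. ARR7 (AT1G19050) had levels of 6.94 and 6.51 in ein2/ore3, compared with 10.63 and 10.42 in ahk3/ore12, a difference of -3.80 (SE 0.198, adjusted p = 3.85e-08), with Col at 6.19 and 6.28. ARR5 measured 8.16 and 7.81 (ein2/ore3) and 10.60 and 9.70 (ahk3/ore12), a difference of -2.17 (SE 0.273, adjusted p = 0.000137). In ARR5 and ARR7 too, every ahk3/ore12 array was above every ein2/ore3 array. ARR4, ARR15 and ARR17 differed by -1.50 (adjusted p = 0.0035), -1.48 (adjusted p = 0.0127) and -1.51 (adjusted p = 0.00574). ARR4 is among the cytokinin genes that the study picked from these same arrays. ARR3 (-0.15, adjusted p = 0.857), ARR8 (0.55, adjusted p = 0.115) and ARR9 (-0.07, adjusted p = 0.916) did not pass. With the replicate number as a block, ARR8 was called higher in ein2/ore3 (adjusted p = 0.0189), and the list then gave 7 calls towards ahk3/ore12 and 1 towards ein2/ore3. The call of ARR15 was lost without ahk3/ore12 replicate 1 or ein2/ore3 replicate 2 (adjusted p up to 0.117). The call of ARR17 was lost without ein2/ore3 replicate 1 (adjusted p up to 0.0991).

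Each mutant was also set against Col at 1 DAT, on the same Col arrays for both. ARR6 differed from Col by 0.61 in ein2/ore3 (adjusted p = 0.222) and by 5.98 in ahk3/ore12 (adjusted p = 3.7e-08). ETR2 differed from Col by -4.86 in ein2/ore3 (adjusted p = 2.46e-08) and by -0.12 in ahk3/ore12 (adjusted p = 0.997). Thus ARR6 passed the test against Col in ahk3/ore12, and ETR2 passed it in ein2/ore3. ARR16 passed in both, at -3.41 in ein2/ore3 (adjusted p = 6.03e-05) and 2.19 in ahk3/ore12 (adjusted p = 0.0232).

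**Figure D2:**
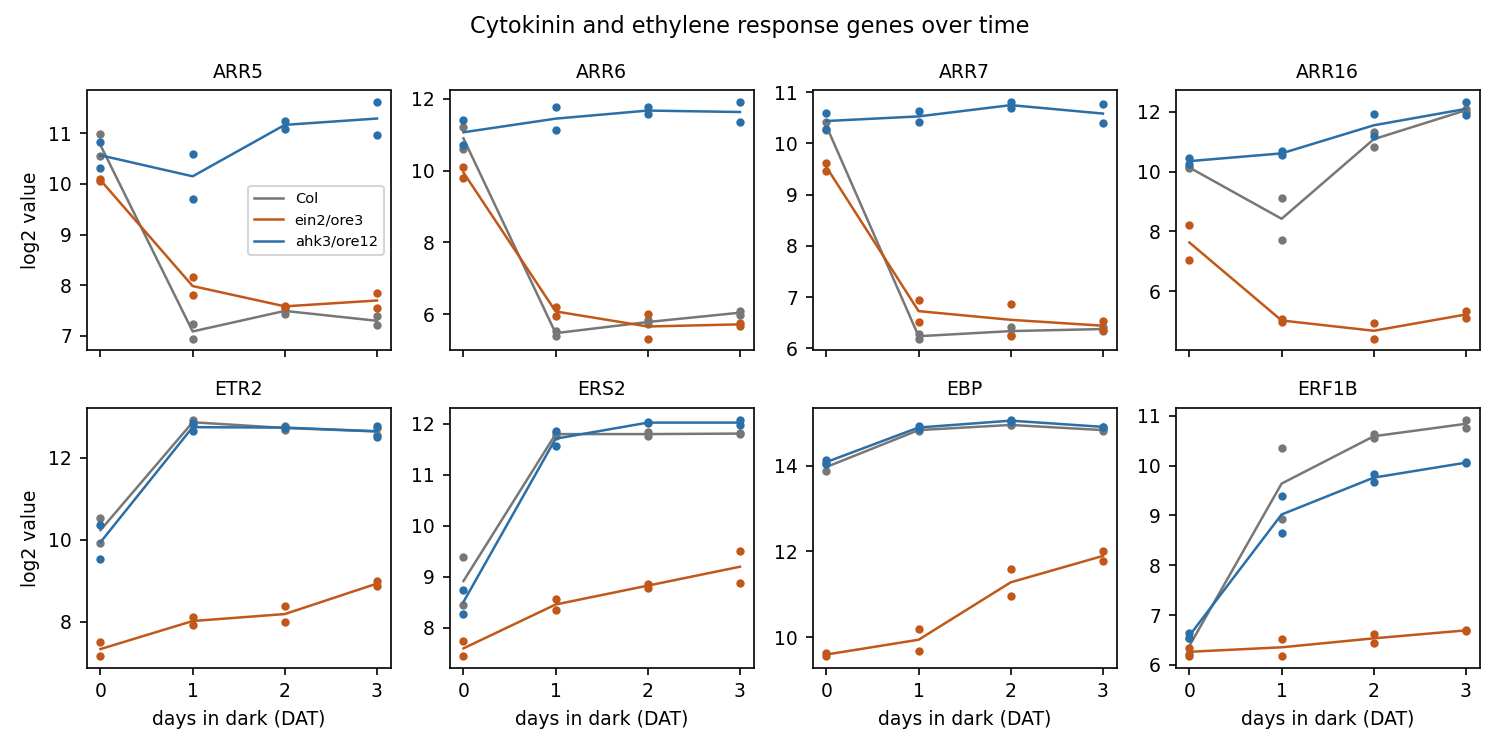
Log2 values over days in the dark of 4 type-A response regulators (top row) and 4 ethylene genes (bottom row) in Col, ein2/ore3 and ahk3/ore12, with 1 point per array and lines through the means of 2. At 1 DAT the ARR5, ARR6 and ARR7 levels of ahk3/ore12 lie above those of both other genotypes, while ETR2, ERS2, EBP and ERF1B are lowest in ein2/ore3.

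Other cytokinin genes were called in both directions. Of 9 cytokinin receptor and phosphotransfer genes, AHP4 was higher in ein2/ore3 and AHP1 in ahk3/ore12. AHP4 (AT3G16360) stood at 10.41 and 10.42 in ein2/ore3 against 8.07 and 8.08 in ahk3/ore12, a difference of 2.34 (SE 0.164, adjusted p = 5.88e-07). Its replicates were nearly identical within each mutant. AHP1 differed by -1.57 (adjusted p = 0.00296). Of 7 type-B response regulators only ARR11 passed, higher in ein2/ore3 by 1.08 (adjusted p = 0.000361). Genes of cytokinin metabolism and transport gave 3 calls among 18. Calls made up 14.3% of the type-B list and 16.7% of the metabolism and transport list, beside 9.34% of all genes. CKX1, a cytokinin oxidase that breaks the hormone down, read 9.05 and 9.27 on the ein2/ore3 arrays and 12.47 and 12.56 on those of ahk3/ore12, a difference of -3.36 (SE 0.177, adjusted p = 3.85e-08). UGT76C2, which glucosylates cytokinin, differed by -2.19 (adjusted p = 0.000478). The levels of both were lower on every ein2/ore3 array. CKX7, another cytokinin oxidase, was higher in ein2/ore3 by 0.75 (adjusted p = 0.00844). Of 6 cytokinin response factors, CRF5 (-1.32, adjusted p = 0.00807) and CRF6 (-1.06, adjusted p = 0.0181) were higher in ahk3/ore12. The call of CKX7 was lost without ahk3/ore12 replicate 1 or ahk3/ore12 replicate 2 or ein2/ore3 replicate 2 (adjusted p up to 0.107). The call of CRF5 was lost without ahk3/ore12 replicate 1 or ein2/ore3 replicate 2 (adjusted p up to 0.114). The call of CRF6 was lost without ahk3/ore12 replicate 1 or ein2/ore3 replicate 1 or ein2/ore3 replicate 2 (adjusted p up to 0.169).

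Among senescence regulators, 4 of 12 NAC transcription factors were higher in ahk3/ore12 and 0 in ein2/ore3, with a median of -0.22. ORE1 (AT5G39610), a NAC factor that promotes senescence, had levels of 9.11 and 9.04 in ein2/ore3, compared with 12.20 and 12.35 in ahk3/ore12, a difference of -3.20 (SE 0.291, adjusted p = 6.3e-06). Its Col arrays, at 12.87 and 12.75, were above those of both mutants. NAC019 measured 8.07 and 8.25 (ein2/ore3) and 11.49 and 10.83 (ahk3/ore12), a difference of -3.0 (SE 0.31, adjusted p = 2.1e-05), and NAC055 differed by -1.99 (adjusted p = 0.00726). Both are stress-responsive NAC factors and were lower on each ein2/ore3 array. VNI2 (AT5G13180), known as a repressor of vascular NAC factors, differed by -2.35 (adjusted p = 2.37e-07). NAP is another promoter of senescence. It differed by -0.39 and did not pass (adjusted p = 0.34). Of 8 senescence WRKY factors only WRKY45 passed, with a difference of -2.27 (adjusted p = 1.59e-06), and WRKY53 differed by -0.69 (adjusted p = 0.382). Over 72 genes named WRKY, 1 was higher in ein2/ore3 and 2 in ahk3/ore12, so that 4.17% were called beside 9.34% of all genes. SAG12, a cysteine protease and marker of late senescence, stood at 5.30 and 5.34 in ein2/ore3 against 5.24 and 5.24 in ahk3/ore12. These are values near the bottom of the range in both mutants. Among 16 senescence-associated and dark-inducible genes, SAG21 (-1.94, adjusted p = 0.000169), SAG20 (-0.49, adjusted p = 0.0253) and SAG24 (-0.43, adjusted p = 0.0379) were higher in ahk3/ore12, and 5 were with the replicate block. SAG21 is the ATLEA5 of the study, which picked it from these same arrays, so its direction is not independent evidence. The call of NAC055 was lost without ahk3/ore12 replicate 1 or ein2/ore3 replicate 2 (adjusted p up to 0.112). The call of SAG20 was lost without ahk3/ore12 replicate 1 or ahk3/ore12 replicate 2 or ein2/ore3 replicate 2 (adjusted p up to 0.248). The call of SAG24 was lost without any 1 of the 4 arrays (adjusted p up to 0.268).

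Chlorophyll breakdown genes were called in both directions, 3 of 14 higher in ahk3/ore12 and 2 in ein2/ore3. Over all genes, 2.32% were called higher in ahk3/ore12 and 7.02% in ein2/ore3. MES16, a methylesterase acting on breakdown products of chlorophyll, read 7.85 and 8.19 on the ein2/ore3 arrays and 10.30 and 10.09 on those of ahk3/ore12, a difference of -2.18 (SE 0.27, adjusted p = 0.000118). CLH1, a chlorophyllase, had levels of 12.24 and 11.98 in ein2/ore3, compared with 9.76 and 9.57 in ahk3/ore12, a difference of 2.45 (SE 0.285, adjusted p = 6.58e-05). The arrays of the mutants were well separated for both genes, in opposite order. PAO, the oxygenase that opens the chlorophyll ring, differed by -0.48 (adjusted p = 0.0185) and TIC55 by -0.64 (adjusted p = 0.000614). NYE1 (-0.23, adjusted p = 0.423) and NYC1 (-0.18, adjusted p = 0.34), which act early in the breakdown, did not pass. Of 20 chlorophyll synthesis genes 3 were higher in ein2/ore3, among them PORC (1.4, adjusted p = 0.00024), which makes chlorophyllide, and GSA1 (-0.37, adjusted p = 0.0261) was higher in ahk3/ore12. Among those higher in ein2/ore3, leaving out 1 array left between 1 (without ein2/ore3 replicate 1 or ahk3/ore12 replicate 1) and 3. The call of PAO was lost without ahk3/ore12 replicate 1 or ein2/ore3 replicate 1 (adjusted p up to 0.196). The call of GSA1 was lost without any 1 of the 4 arrays (adjusted p up to 0.214).

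Light-harvesting and photosystem genes had medians above 0. The light-harvesting genes had a median of 0.47 with 4 of 18 called higher in ein2/ore3, and the photosystem genes a median of 0.36 with 5 of 19. Over all genes, 7.02% were called higher in ein2/ore3. None of either list was called higher in ahk3/ore12, and 6 light-harvesting genes were called with the replicate block. LHCB2.3 measured 14.75 and 14.73 (ein2/ore3) and 12.41 and 13.16 (ahk3/ore12), a difference of 1.96 (SE 0.301, adjusted p = 0.000686). The ein2/ore3 arrays were close together and above both ahk3/ore12 arrays. LHCB1.4 differed by 1.70 (adjusted p = 0.00523) and PSBO2, a subunit of the oxygen-evolving complex, by 1.3 (adjusted p = 4.94e-06). LHCB genes are near-identical copies, so single members are uncertain. For the light-harvesting list leaving out 1 array left between 1 (without ein2/ore3 replicate 1) and 3, and for the photosystem list leaving out 1 array left between 1 (without ein2/ore3 replicate 1 or ahk3/ore12 replicate 1) and 4. Of 11 carbon fixation genes 0 passed in limma, with a median of 0.23, and 2 were called higher in ein2/ore3 with the replicate block. The Rubisco small subunit gene RBCS1A differed by -0.11 (adjusted p = 0.632). The call of LHCB1.4 was lost without ein2/ore3 replicate 1 (adjusted p up to 0.057).

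Genes that the study had picked from these same arrays for salt and oxidative stress were higher in ahk3/ore12 in 7 of 7 cases, with a median of -2.37. Since the study chose them on these samples, their direction on these arrays is not independent evidence. The same holds where genes picked by the study count in other lists, such as AT4G16260, PR4, RAP2.6, SAG21 (the ATLEA5 of the study) and ARR4. The study also followed the 7 genes by qPCR, and described their induction as weaker in ein2/ore3 than in ahk3/ore12. AT4G16260 stood at 7.18 and 7.11 in ein2/ore3 against 11.88 and 10.61 in ahk3/ore12, a difference of -4.10 (SE 0.666, adjusted p = 0.00104). Its Col arrays, at 13.40 and 12.25, were the highest. PRX37, a peroxidase, read 10.02 and 9.74 on the ein2/ore3 arrays and 13.47 and 12.91 on those of ahk3/ore12, a difference of -3.31 (SE 0.252, adjusted p = 1.16e-06). The mutants were clearly separated in both genes. AT4G08780 differed by -3.36 (adjusted p = 2.02e-05) and AT1G21520 by -1.68 (adjusted p = 0.00139). Of 6 defence genes that respond to ethylene and jasmonate, 3 were higher in ahk3/ore12. They were AT4G16260, PR4 and the chitinase gene HCHIB (-2.31, adjusted p = 0.000175). PR4, a defence protein, had levels of 10.28 and 9.92 in ein2/ore3, compared with 12.49 and 12.45 in ahk3/ore12, a difference of -2.37 (SE 0.211, adjusted p = 5.57e-06). The defensin gene PDF1.2A measured 8.03 and 8.51 (ein2/ore3) and 8.68 and 9.89 (ahk3/ore12) and did not pass (-1.02, adjusted p = 0.307). Its ahk3/ore12 arrays were above the ein2/ore3 arrays, but by less than the spread between them. Of the 8 genes the study picked for cytokinin, tetrapyrroles and ribosomes, ARR4 and PRPL28 (-0.35, adjusted p = 0.0312) were higher in ahk3/ore12 and the other 6, such as EMB3105 (0.01, adjusted p = 0.966), did not pass. These 8 were chosen on these samples too, so their direction on these arrays is not independent evidence. The call of PRPL28 was lost without any 1 of the 4 arrays (adjusted p up to 0.204).

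Other genes with large differences towards ahk3/ore12 had varied annotations. THA1, a threonine aldolase, stood at 8.79 and 8.18 in ein2/ore3 against 12.84 and 11.55 in ahk3/ore12, a difference of -3.71 (SE 0.465, adjusted p = 0.000131). IAGLU, which glucosylates auxin, read 10.29 and 10.24 on the ein2/ore3 arrays and 14.04 and 13.71 on those of ahk3/ore12, a difference of -3.61 (SE 0.163, adjusted p = 1.08e-08). UPB1, a transcription factor known from the control of root growth, had levels of 9.31 and 9.38 in ein2/ore3, compared with 12.93 and 12.56 in ahk3/ore12, a difference of -3.40 (SE 0.178, adjusted p = 3.85e-08). In all 3, replicates of a mutant were closer together than the mutants were to each other. ORP4C, AACT1, AT5G06570 and AT1G62770 differed by -3.46 (adjusted p = 1.17e-05), -3.38 (adjusted p = 0.0054), -3.99 (adjusted p = 5.42e-07) and -3.45 (adjusted p = 2.28e-05). AT5G57760 had the largest difference towards ahk3/ore12 of all, with ein2/ore3 below 6.995, the 25th percentile of all gene means on these 4 arrays. It measured 5.85 and 5.85 (ein2/ore3) and 11.62 and 11.28 (ahk3/ore12), a difference of -5.60 (SE 0.34, adjusted p = 1.65e-07). ARR16, ARR6 and AT1G03010 (-5.29, adjusted p = 5.32e-07) followed, also dim in ein2/ore3. The call of AACT1 was lost without ahk3/ore12 replicate 1 or ein2/ore3 replicate 2 (adjusted p up to 0.0688).

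Among genes higher in ein2/ore3, the largest difference was that of AT1G66100. It stood at 13.27 and 12.88 in ein2/ore3 against 7.11 and 6.81 in ahk3/ore12, a difference of 6.12 (SE 0.468, adjusted p = 1.21e-06). AT3G28220 read 11.42 and 11.73 on the ein2/ore3 arrays and 5.47 and 5.57 on those of ahk3/ore12, a difference of 6.06 (SE 0.453, adjusted p = 1.11e-06). Both were dim in ahk3/ore12 and bright on both ein2/ore3 arrays. AT2G27385 (4.94, adjusted p = 3.95e-07) and PYK10 (4.73, adjusted p = 0.000451) were also dim in ahk3/ore12. GolS3 (AT1G09350), a galactinol synthase of the raffinose pathway, had levels of 13.06 and 12.98 in ein2/ore3, compared with 7.43 and 8.38 in ahk3/ore12, a difference of 5.12 (SE 0.584, adjusted p = 5.35e-05). SWEET13, a sugar transporter, measured 11.25 and 11.42 (ein2/ore3) and 6.90 and 7.51 (ahk3/ore12), a difference of 4.13 (SE 0.411, adjusted p = 1.57e-05). The ahk3/ore12 replicates were further apart than the ein2/ore3 replicates for both of these genes. AT3G21670 (NPF6.4), of the nitrate and peptide transporter family, stood at 12.70 and 12.84 in ein2/ore3 against 8.37 and 8.17 in ahk3/ore12, a difference of 4.50 (SE 0.167, adjusted p = 1.29e-09). ESP, which directs glucosinolate breakdown, read 12.28 and 12.31 on the ein2/ore3 arrays and 8.40 and 8.63 on those of ahk3/ore12, a difference of 3.78 (SE 0.188, adjusted p = 3.27e-08). The myrosinase-binding protein gene MBP1 differed by 3.73 (adjusted p = 0.00469). Myrosinases act on the same compounds. AT4G29905, AT5G45950, ZW9, AT1G51090, AT1G54020 and AT4G28780 had differences between 3.64 and 4.14. The call of MBP1 was lost without ahk3/ore12 replicate 1 (adjusted p up to 0.0609).

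**Figure D3:**
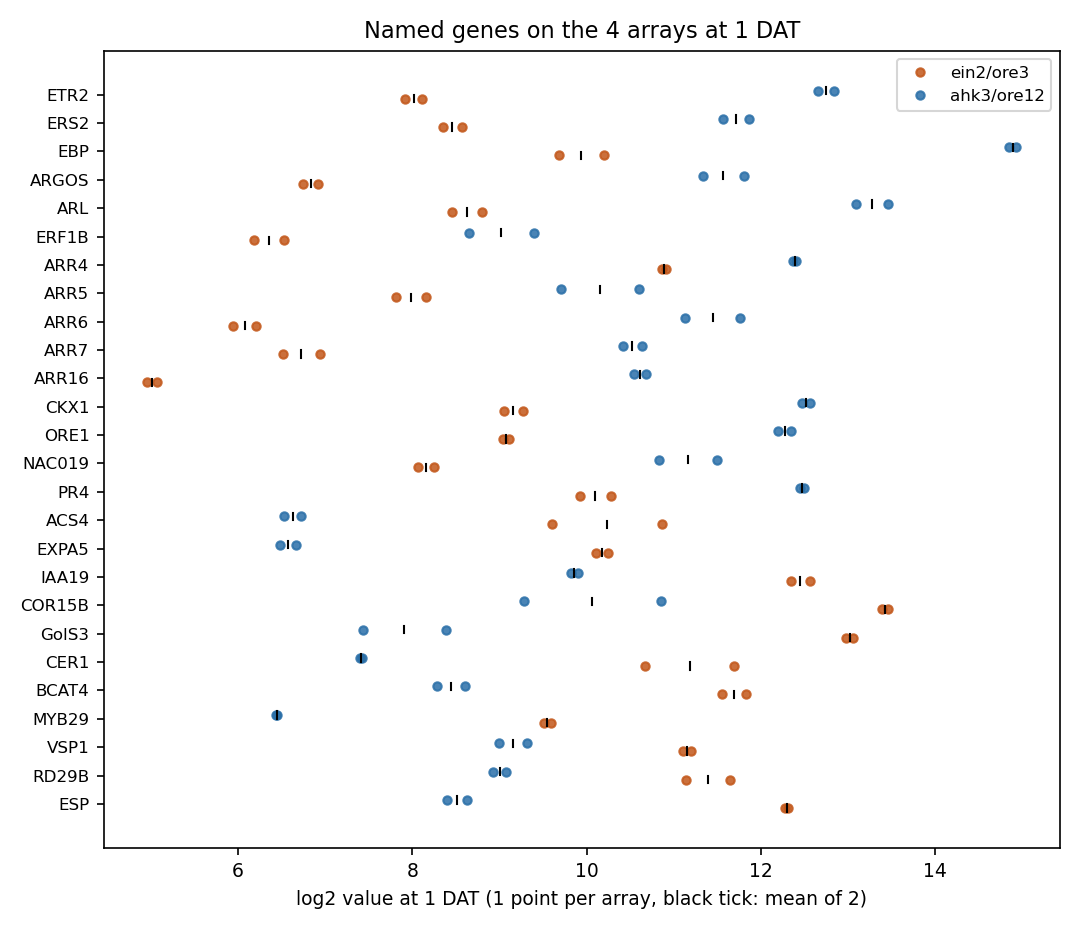
Log2 values of 26 named genes on the 4 arrays at 1 DAT, 1 point per array, with a black tick at the mean of 2. All genes shown were called, and the arrays of the mutants do not overlap on any called gene, nor on 59.4% of all genes. COR15B, ACS4 and CER1 have the widest spread between replicates.

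Abscisic acid response genes were higher in ein2/ore3 in 11 of 20 cases and in ahk3/ore12 in 0, with a median of 0.66. Over all genes, 7.02% were called higher in ein2/ore3. Leaving out 1 array left between 6 (without ein2/ore3 replicate 2) and 9 calls in this list. RD29B, a drought-inducible gene, had levels of 11.14 and 11.65 in ein2/ore3, compared with 8.93 and 9.07 in ahk3/ore12, a difference of 2.40 (SE 0.182, adjusted p = 1.16e-06). NCED3, which makes a precursor of abscisic acid, measured 12.69 and 12.73 (ein2/ore3) and 10.40 and 10.30 (ahk3/ore12), a difference of 2.36 (SE 0.237, adjusted p = 1.72e-05). The ein2/ore3 arrays were above the ahk3/ore12 arrays for both. The phosphatase genes HAI1 and ABI2, whose products dampen abscisic acid signalling, differed by 2.29 (adjusted p = 0.00043) and 1.78 (adjusted p = 0.000132).

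Of 20 jasmonate genes 10 were higher in ein2/ore3 and 0 in ahk3/ore12, with a median of 0.71. The count rested on all 4 arrays, and leaving out 1 array left between 3 (without ein2/ore3 replicate 1 or ein2/ore3 replicate 2 or ahk3/ore12 replicate 2) and 4. VSP1, a vegetative storage protein induced by jasmonate, stood at 11.20 and 11.11 in ein2/ore3 against 8.99 and 9.31 in ahk3/ore12, a difference of 2.01 (SE 0.497, adjusted p = 0.0185). The groups did not overlap. JAZ10, a repressor of the jasmonate response, differed by 1.84 (adjusted p = 0.0164), and the synthesis genes LOX2 and AOC4 by 1.24 (adjusted p = 0.0122) and 1.13 (adjusted p = 0.000936). Of 11 salicylic acid genes only PR2, a glucanase, passed, higher in ein2/ore3 by 2.96 (adjusted p = 0.00419), and 3 passed with the replicate block. The call of PR2 alone is 9.09% of the list, beside 9.34% of all genes called. PR1, a marker of the salicylic acid response, read 7.88 and 9.14 on the ein2/ore3 arrays and 11.21 and 9.29 on those of ahk3/ore12 and did not pass (-1.74, adjusted p = 0.598). Its replicates were far apart in both mutants. The calls of VSP1 and JAZ10 were lost without any 1 of the 4 arrays (adjusted p up to 0.123). The call of LOX2 was lost without ahk3/ore12 replicate 1 or ein2/ore3 replicate 1 or ein2/ore3 replicate 2 (adjusted p up to 0.136).

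Lists of cold, wax, glucosinolate and auxin genes and of wall enzymes were added after their values had been seen, and their counts are descriptions. Of 11 cold-regulated genes 10 were higher in ein2/ore3, with a median of 1.69, and leaving out 1 array left between 4 (without ahk3/ore12 replicate 1) and 7. COR15B, which protects chloroplasts from freezing, had levels of 13.39 and 13.46 in ein2/ore3, compared with 9.28 and 10.85 in ahk3/ore12, a difference of 3.36 (SE 0.584, adjusted p = 0.00172). The ein2/ore3 arrays agreed closely and the ahk3/ore12 arrays did not. CBF3, a regulator of these genes, differed by 1.62 (adjusted p = 0.00121). Of 13 genes of cuticular wax synthesis and export, 7 were higher in ein2/ore3, and leaving out 1 array left between 2 (without ahk3/ore12 replicate 2) and 4. CER1, which makes wax alkanes, measured 10.67 and 11.69 (ein2/ore3) and 7.40 and 7.42 (ahk3/ore12), a difference of 3.77 (SE 0.582, adjusted p = 0.000691), and CER2 differed by 1.81 (adjusted p = 0.00487). For CER1 the ahk3/ore12 arrays were dim and close, and the ein2/ore3 arrays higher and further apart. Of 15 genes of aliphatic glucosinolate synthesis, 7 were higher in ein2/ore3, and leaving out 1 array left between 5 (without ein2/ore3 replicate 1 or ein2/ore3 replicate 2 or ahk3/ore12 replicate 2) and 6. Their regulator MYB29 stood at 9.51 and 9.59 in ein2/ore3 against 6.44 and 6.45 in ahk3/ore12, a difference of 3.11 (SE 0.32, adjusted p = 2.1e-05). BCAT4, an enzyme of the first steps of that pathway, differed by 3.25 (adjusted p = 0.00336) and CYP79F1 by 2.0 (adjusted p = 0.00308). None of these 3 lists had a member called higher in ahk3/ore12. The call of CER2 was lost without ahk3/ore12 replicate 2 or ein2/ore3 replicate 1 (adjusted p up to 0.0867).

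Of 79 SAUR genes, which respond to auxin, 26 were higher in ein2/ore3 but 2 in ahk3/ore12, and leaving out 1 array left between 16 (without ein2/ore3 replicate 1 or ahk3/ore12 replicate 1) and 23. The SAUR gene AT5G18030 read 11.19 and 11.16 on the ein2/ore3 arrays and 6.65 and 7.17 on those of ahk3/ore12, a difference of 4.27 (SE 0.4, adjusted p = 8.78e-06). Its ein2/ore3 arrays were nearly equal and far above both ahk3/ore12 arrays. Many SAUR genes are near-identical neighbours, so single members are uncertain. Among 26 Aux/IAA genes, repressors of the auxin response, 8 were higher in ein2/ore3 but 1 in ahk3/ore12, and leaving out 1 array left between 3 (without ein2/ore3 replicate 1) and 7. IAA19 was higher in ein2/ore3 by 2.59 (adjusted p = 0.000183). Of 33 xyloglucan endotransglucosylases, which remodel the cell wall, 6 were higher in ein2/ore3 but 2 in ahk3/ore12, and leaving out 1 array left between 2 (without ein2/ore3 replicate 1 or ein2/ore3 replicate 2) and 4. XTH32 was among the former (2.34, adjusted p = 0.000155). Expansins, which loosen cell walls, were higher in ein2/ore3 in 11 of 38 cases and in ahk3/ore12 in 2, and leaving out 1 array left between 7 (without ein2/ore3 replicate 1 or ein2/ore3 replicate 2 or ahk3/ore12 replicate 1) and 8. EXPA5 had levels of 10.11 and 10.24 in ein2/ore3, compared with 6.66 and 6.48 in ahk3/ore12, a difference of 3.61 (SE 0.271, adjusted p = 1.11e-06), and EXLA2 differed by 2.96 (adjusted p = 9.53e-06). The arrays of EXPA5 were close within each mutant.

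Ribosomal proteins whose names do not mark them as plastid or mitochondrial were called in the other direction. Of 48 named so, 15 were higher in ahk3/ore12 and 0 in ein2/ore3, with a median of -0.41 beside 0.25 at 0 DAT, and leaving out 1 array left between 3 (without ein2/ore3 replicate 2 or ahk3/ore12 replicate 1) and 4. The differences were small, as in RPS15AD (-0.72, adjusted p = 0.0035). Of 15 plastid ribosomal proteins 1 was higher in ahk3/ore12, with a median of -0.025, as was 1 of 27 ribosome biogenesis genes. Only 2 mitochondrial ribosomal proteins were matched by name, and both missed the threshold and passed it with the replicate block. Lists matched by symbol or synonym do not cover whole families. Of 45 glutathione S-transferases, 7 were higher in ein2/ore3, such as GSTU18 (2.17, adjusted p = 1.56e-05), and 1 in ahk3/ore12. For that family leaving out 1 array left between 2 (without ein2/ore3 replicate 1) and 3. Over all genes, 7.02% were higher in ein2/ore3 and 2.32% in ahk3/ore12. Among genes matched by name, 1 of 32 histones was higher in ein2/ore3. Of those matched as peroxidases 1 of 13, and as heat shock proteins 1 of 35, were higher in ahk3/ore12. In other lists, 2 of 13 clock genes and 2 of 13 flavonoid genes were higher in ein2/ore3. There, 1 of 9 ATG8 genes and 1 of 9 genes of branched-chain amino acid breakdown were higher in ahk3/ore12. With the replicate block, 4 genes of that last list and 4 flavonoid genes were called.

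**Figure D4:**
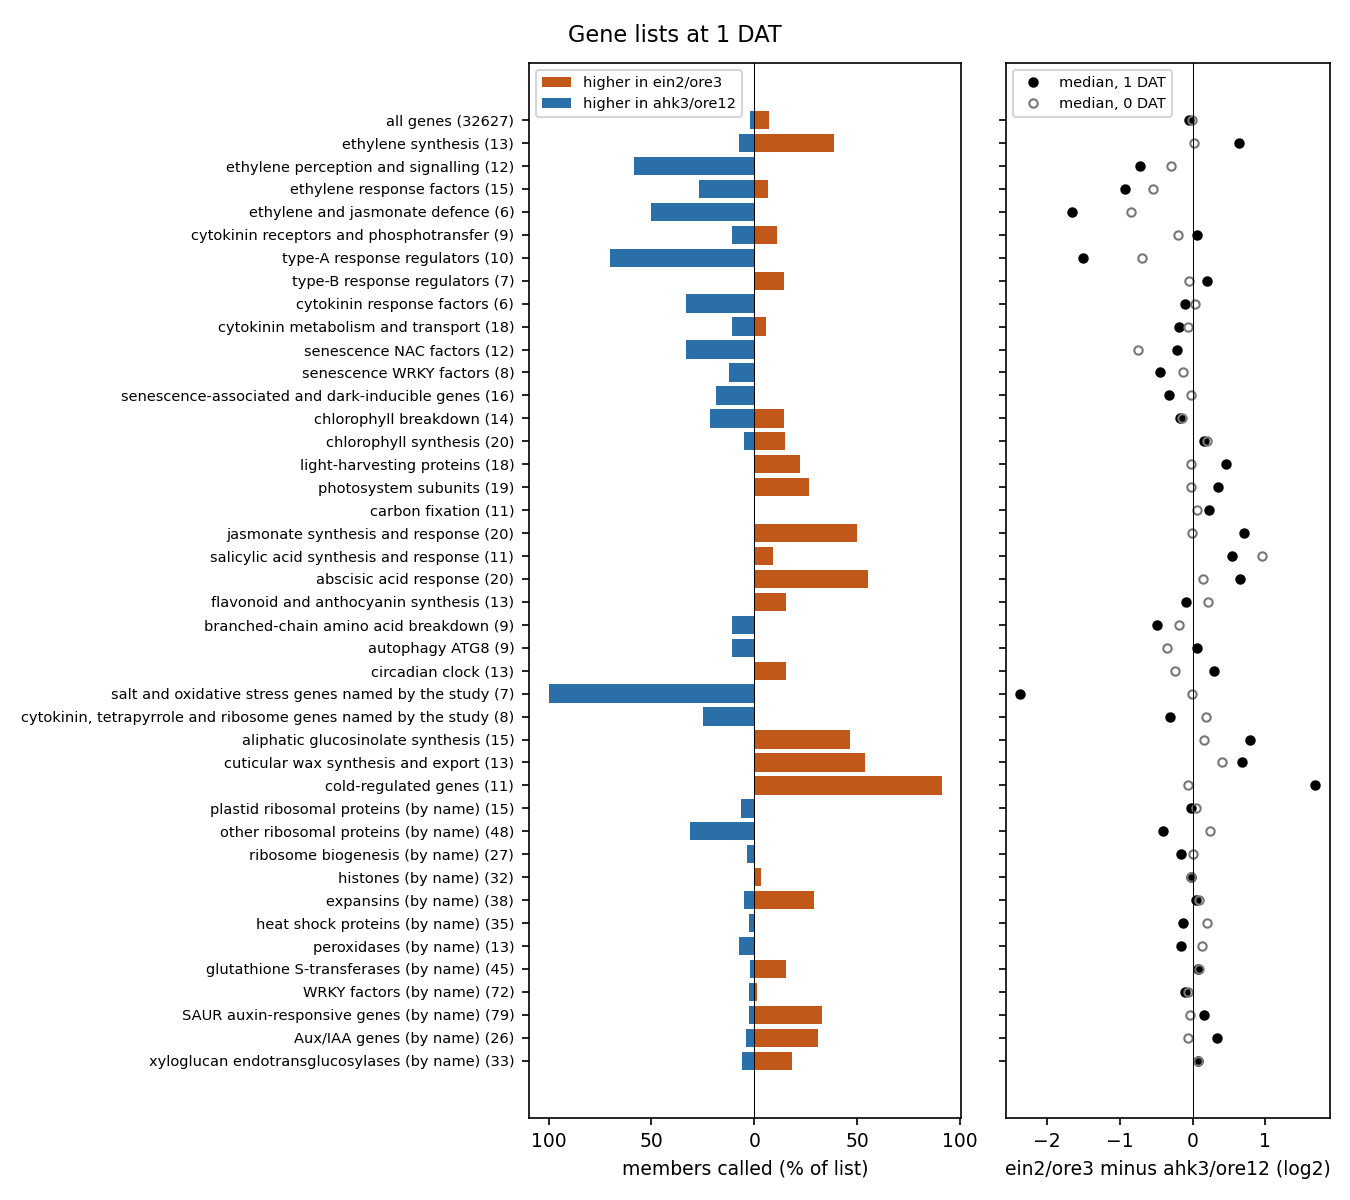
Left, share of each list called higher in ein2/ore3 (right of 0) or in ahk3/ore12 (left of 0) at 1 DAT, with list sizes in brackets. Right, median difference on the log2 scale at 1 DAT (filled) and 0 DAT (open), with type-A response regulators at -1.50 and cold-regulated genes at 1.69 at 1 DAT.

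Before darkness the mutants differed in far fewer genes. At 0 DAT, on 4 other arrays, 54 genes (0.166%) were higher in ein2/ore3 and 79 (0.242%) in ahk3/ore12, 133 in all or 0.408% of all genes, and 239 passed with the replicate block. Without 1 array, the number lay between 24 (without ahk3/ore12 replicate 1) and 238 (without ahk3/ore12 replicate 2), with 68 without ein2/ore3 replicate 2. Of the 133 genes, 89 also passed at 1 DAT, which is 66.9% of them and 2.92% of the 1 DAT calls, and 85 of the 89 had the same sign. Calls at both times used the same estimate of the spread of each gene. Ethylene and senescence genes were among them. EBP already differed by -4.49 at 0 DAT (adjusted p = 3.61e-09), ORE1 by -4.36 (adjusted p = 3.28e-06) and EBF2 by -1.29 (adjusted p = 0.000446). Of these 3 genes, none passed the test of the change in difference. ETR2 differed by -2.61 at 0 DAT (adjusted p = 7.87e-05), and its difference at 1 DAT was larger by that test (adjusted p = 0.00359).

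In the test of the change, the difference at 1 DAT departed from the one at 0 DAT for 1048 genes (3.21%), 698 (2.14%) towards ein2/ore3 and 350 (1.07%) towards ahk3/ore12. From 0 to 1 DAT, darkness came together with time after detachment and time on MES solution. These cannot be told apart in any change over that day. With the replicate block 1794 genes passed the test of the change. Leaving out 1 array gave between 352 (without ein2/ore3 1 DAT replicate 1) and 916 genes, with 378 and 380 without replicate 1 of ahk3/ore12 at 0 and 1 DAT, 427 and 456 without replicate 2 of ein2/ore3 at 0 and 1 DAT, and 519 without ahk3/ore12 1 DAT replicate 2. Cytokinin genes were among those that changed. At 0 DAT ARR6 measured 9.79 and 10.10 (ein2/ore3) and 11.42 and 10.71 (ahk3/ore12), and its difference changed by -4.25 to 1 DAT (adjusted p = 0.000113). ARR7 changed by -2.90 (adjusted p = 0.000113). At 0 DAT AHP4 stood at 6.32 and 6.0 in ein2/ore3 against 6.50 and 6.37 in ahk3/ore12, and its difference changed by 2.62 (adjusted p = 5.67e-05). At 0 DAT the mutants were thus closer to each other in both genes than at 1 DAT. Of the type-A list 4 of 10 passed, of ethylene perception 4 of 12 and of cold-regulated genes 5 of 11. Of the ribosomal proteins named neither as plastid nor as mitochondrial, 12 of 48 passed.

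**Figure D5:**
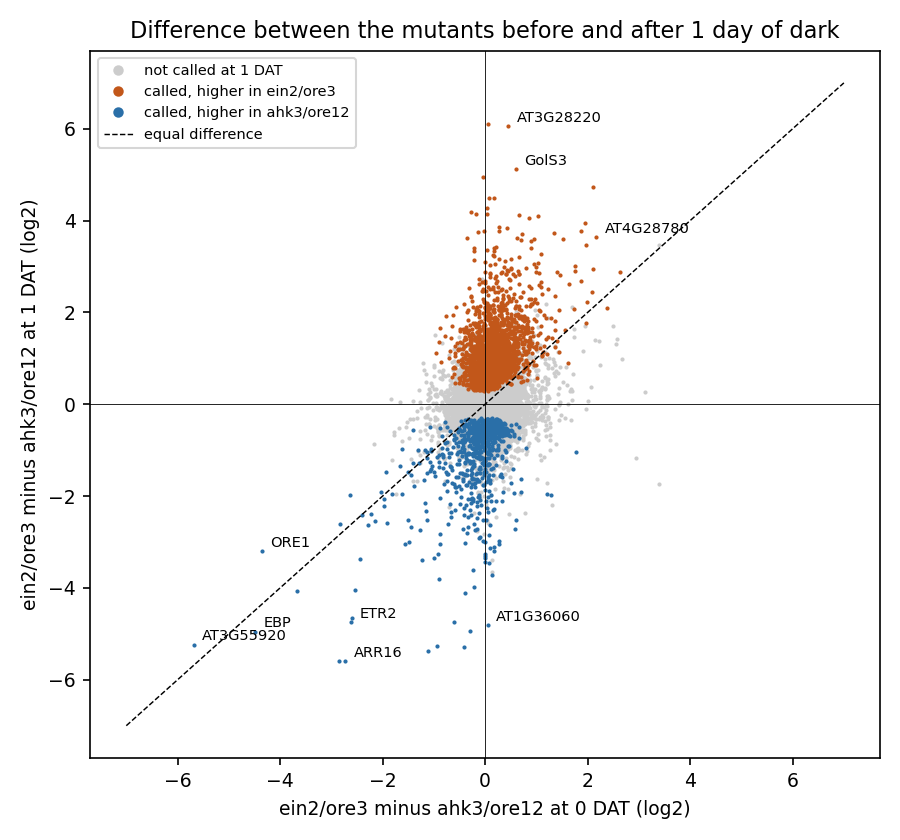
Difference ein2/ore3 minus ahk3/ore12 (log2) at 0 DAT (x axis) and 1 DAT (y axis) for 32627 genes, coloured by the call at 1 DAT, with a dashed line of equal differences. Most called genes lie near 0 on the x axis, while EBP and AT3G55920 lie close to the dashed line.

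Each genotype's own change from 0 to 1 DAT is given for a few of these genes, with the 1 DAT arrays shared with the comparison above. Between 0 and 1 DAT, 22.8% of all genes changed in ein2/ore3 (13.9% rose and 8.87% fell), 25.9% in ahk3/ore12 (13.6% rose and 12.3% fell) and 28.3% in Col (13.3% rose and 15.0% fell). AT1G66100 changed by -0.71 in ein2/ore3 (adjusted p = 0.347), -6.76 in ahk3/ore12 (adjusted p = 4.38e-08) and -6.70 in Col (adjusted p = 3.79e-08). The gene thus fell in ahk3/ore12 and Col and did not pass in ein2/ore3. GolS3 changed by 2.06 in ein2/ore3 (adjusted p = 0.0176), -2.46 in ahk3/ore12 (adjusted p = 0.00479) and -4.26 in Col (adjusted p = 4.24e-05). It rose in ein2/ore3 and fell in both others. ARR6 changed by -3.87 in ein2/ore3 (adjusted p = 1.48e-07), 0.38 in ahk3/ore12 (adjusted p = 0.466) and -5.43 in Col (adjusted p = 2.5e-09). Here ein2/ore3 and Col fell and ahk3/ore12 did not pass. ORS1 changed by 0.36 in ein2/ore3 (adjusted p = 0.655), 5.01 in ahk3/ore12 (adjusted p = 7.22e-07) and 5.72 in Col (adjusted p = 1.43e-07). ESP changed by -0.53 in ein2/ore3 (adjusted p = 0.0564), -4.04 in ahk3/ore12 (adjusted p = 9.32e-10) and -4.19 in Col (adjusted p = 5.13e-10). In both, ahk3/ore12 and Col changed alike and ein2/ore3 did not pass. AHP4 changed by 4.26 in ein2/ore3 (adjusted p = 4.2e-10), 1.64 in ahk3/ore12 (adjusted p = 2.09e-06) and 1.69 in Col (adjusted p = 1.23e-06), a rise in all 3 genotypes.

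Neighbouring loci were selected as runs when 3 or more were called the same way at both 0 and 1 DAT. Their likeness at both times is thus the rule of selection, and how often such runs arise was not tested. On chromosome 3, AT3G55900, AT3G55910 and AT3G55920 were higher in ahk3/ore12. AT3G55920 read 5.35 and 5.0 on the ein2/ore3 arrays and 10.34 and 10.48 on those of ahk3/ore12 at 1 DAT, a difference of -5.24 (SE 0.218, adjusted p = 4.39e-09), and differed by -5.68 at 0 DAT (adjusted p = 3.61e-09). Its Col arrays, at 5.20 and 5.02, lay beside those of ein2/ore3. AT3G55900 and AT3G55910 differed by -4.07 (adjusted p = 0.00137) and -2.55 (adjusted p = 9.45e-05) at 1 DAT. None of the 3 loci passed the test of ein2/ore3 against Col, and all 3 passed that of ahk3/ore12 against Col. On chromosome 2, SWI3A (AT2G47620), a subunit of a chromatin remodelling complex, and its neighbours AT2G47630 and AT2G47640 were higher in ein2/ore3, by 0.89 (adjusted p = 0.000176), 1.26 (adjusted p = 0.00182) and 0.51 (adjusted p = 0.0123). SWI3A had levels of 12.09 and 11.95 in ein2/ore3, compared with 11.20 and 11.07 in ahk3/ore12, with Col at 11.19 and 10.98. There all 3 loci passed the test of ein2/ore3 against Col and none that of ahk3/ore12 against Col. Neither run is on the chromosome of EIN2 (5) or AHK3 (1), and the cause of either run was not tested. The call of AT2G47640 was lost without any 1 of the 4 arrays (adjusted p up to 0.1).

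The 1 DAT differences were followed on the arrays of 2 and 3 DAT. The spread of each gene was shared by all time points in the fit, so calls at different times are not independent. Of the 756 genes higher in ahk3/ore12 at 1 DAT, 636 (84.1%) were called the same way at 2 DAT and 516 (68.3%) at 3 DAT. Over all genes, 6.47% and 5.46% were called that way, out of 10.4% and 10.3% called in either direction. Of the 2291 genes higher in ein2/ore3, 902 (39.4%) and 941 (41.1%) were called the same way at 2 and 3 DAT, beside 3.90% and 4.88% of all genes. Calls of the opposite sign numbered 0 and 3 among the former and 2 and 24 among the latter. Among genes called at 1 DAT, most of those also called at 2 or 3 DAT thus kept their direction. ein2/ore3 replicate 2 at 2 DAT had a median of 8.91, below the 9.02 to 9.16 of the other arrays. Without it, 821 genes were higher in ein2/ore3 and 778 in ahk3/ore12 at 2 DAT, in place of 1273 and 2112, and median centring gave 1741 and 1285. The split between the directions at 2 DAT also moved when other arrays of 2 DAT were left out, and its cause was not tested. The difference at 3 DAT departed from that at 1 DAT for 330 genes (1.01%), 82 (0.251%) upwards and 248 (0.760%) downwards, and for 761 with the replicate block. Without 1 array, between 79 (without ein2/ore3 1 DAT replicate 1) and 344 passed.

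The change of Col leaves from 0 to 1 DAT comes from Col arrays, which do not enter the difference between the mutants. The spread of each gene was estimated from all 24 arrays, so calls in Col and between the mutants are not independent. Of the 2291 genes higher in ein2/ore3, 1231 (53.7%) fell in Col and 195 (8.51%) rose. Of the 756 genes higher in ahk3/ore12, 519 (68.7%) rose in Col and 64 (8.47%) fell. Over all genes, 13.3% rose and 15.0% fell in Col. Median changes in Col were -0.63 for the former and 0.75 for the latter, beside 0.08 over all genes.

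Markers of cell types were read from the same arrays, on which fewer cells of a type and less RNA per cell cannot be told apart. The summed level of 5 mesophyll markers lay between 17.69 and 17.70 in ein2/ore3 and between 17.55 and 17.60 in ahk3/ore12 on the log2 scale, the highest of all lists, as a leaf sample would have. Seed markers lay between 9.90 and 9.91 in ein2/ore3 and between 10.03 and 10.33 in ahk3/ore12, and flower markers between 7.38 and 7.46 and between 7.44 and 7.57. Both root markers together lay between 11.11 and 12.32 in ein2/ore3 and between 7.93 and 7.94 in ahk3/ore12. The root sum was thus higher on both ein2/ore3 arrays. That gap came from PYK10, a beta-glucosidase of ER bodies, which measured 12.29 and 11.05 (ein2/ore3) and 7.12 and 6.77 (ahk3/ore12). TIP2;3, a root water channel, stood at 6.48 and 6.54 in ein2/ore3 against 6.74 and 7.07 in ahk3/ore12 and did not pass (-0.40, adjusted p = 0.492). Of the root markers, then, only PYK10 was high in ein2/ore3. The 4 markers of dividing cells lay between 11.45 and 11.58 in ein2/ore3 and between 10.54 and 10.83 in ahk3/ore12, with KN, needed for cell plates, called at 0.88 (adjusted p = 0.00718). Dividing-cell and xylem markers were thus higher on every ein2/ore3 array, with the 2 xylem markers between 11.78 and 11.98 and between 10.88 and 10.99. The remaining lists showed smaller gaps in the same order. Guard cell markers lay between 12.25 and 12.67 in ein2/ore3 and between 11.94 and 11.96 in ahk3/ore12, phloem markers between 15.03 and 15.08 and between 14.58 and 14.85, and epidermis and trichome markers between 12.15 and 12.40 and between 11.83 and 12.10. Of 30 markers, 5 were called, each higher in ein2/ore3, beside 7.02% of all genes called that way and 2.32% called higher in ahk3/ore12. No xylem, phloem or epidermis and trichome marker was called. Leaving out 1 array left 1 (without ein2/ore3 replicate 1 or ahk3/ore12 replicate 2), 2 (without ahk3/ore12 replicate 1) or 3 (without ein2/ore3 replicate 2), and both mesophyll calls were lost in each case. The part of cell composition in the differences above was not tested. The call of KN was lost without ahk3/ore12 replicate 2 or ein2/ore3 replicate 1 (adjusted p up to 0.103).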

How the data were processed

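Total RNA of leaves was labelled with Cy3 and hybridised to single-channel NimbleGen arrays by the authors, whose software corrected the background, quantile-normalized and summarised probes by RMA. The deposited intensity values are linear values per transcript variant, and the deposited log2 values per gene are the log2 of the summed variants made by the authors. The log2 table was used as deposited, without a filter, and the intensity tables served alternatives. Depth does not apply to arrays, and 2 arrays per condition limit the precision.

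Group means of 12 conditions were fitted to all 24 arrays with limma 3.58.1 in R 4.3.3, moderated by eBayes (12 residual and 2.55 prior degrees of freedom). p-values were adjusted over all 32627 genes by Benjamini and Hochberg's method. Calls have an FDR under 0.05. The procedure was tested on simulated data. A first limit on the share of changed genes recovered was missed, and a lower one was tried next. They were replaced by limits on false calls, sizes and signs, which were met. The simulated arrays varied independently, unlike same-numbered replicates in these data, so the outcome does not give the share of false calls here. Gene symbols came from the TAIR10.1 annotation for 31993 genes, and 634 kept their locus. The array was designed on TAIR9, so no coordinates are given.

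Named genes were the 12 largest differences each way, the 4 largest each way among dim genes, the 4 largest each way for the change in difference from 0 to 1 DAT, EIN2, AHK3, genes the study names, up to 4 called members and key members of each list, and runs of 3 or more neighbouring loci called alike at 0 and 1 DAT. Further called members of short lists were named after their values were seen. Gene families were matched by words in annotated symbols and synonyms, so members without such words are missing from them. Members and lists were chosen with earlier results of these data known. No list was tested. Array codes in the deposited names place each replicate number on 1 slide. Same-numbered replicates deviated together, with a correlation of 0.64 between the mutants at 1 DAT and, across 66 pairs of conditions, a median correlation of 0.30 (from -0.16 to 0.82, 47 over 0.1), so the replicate number was also fitted as a block. Other alternatives were the arrays and moderation of the fit, array weights, normalization, a filter on dim genes, the brightest variant and each array left out.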

Additional observations from a re-analysis of the deposited data

Results flagged for a closer look

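The difference between the mutants was tested for change between time points. It departed from 0 DAT at 1 DAT for 1048 genes, and from 1 DAT at 3 DAT for 330 genes. The genes with the largest changes from 0 to 1 DAT are given as the difference at 1 DAT minus that at 0 DAT, with limma's adjusted p. AT1G66100 changed by 6.05 (adjusted p = 0.000246), AT3G28220 by 5.61 (adjusted p = 0.000347), AT2G27385 by 4.98 (adjusted p = 8.6e-05) and GolS3 by 4.52 (adjusted p = 0.00834). In the other direction, AT1G03010 changed by -4.88 (adjusted p = 0.000188), AT1G36060 by -4.86 (adjusted p = 0.000188), ORS1 by -4.65 (adjusted p = 0.00135) and AT4G22490 by -4.35 (adjusted p = 0.00372). With 2 arrays per condition, no single array could be tested as standing apart from its group.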

How the results depend on the processing

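Counts of called genes at 1 DAT were within 1.5 times of 3047 under most settings, and 4148 passed with the replicate number as a block. Full precision of the summed intensities, a setting chosen after seeing the data, gave 3048. Fits to the arrays of a comparison alone gave 1523 genes at 1 DAT, 5 at 0 DAT, 364 at 2 DAT, 710 at 3 DAT, 630 for the change from 0 to 1 DAT and 29 for that from 1 to 3 DAT. An FDR under 0.01 gave 1640, 57, 1511, 1726, 317 and 71 in the same order, by construction fewer. Array weights gave 5566 at 1 DAT, 304 at 0 DAT, 1127 at 2 DAT, and 2392 and 826 for the changes. The replicate block gave 239 at 0 DAT and 1794 and 761 for the changes. Among genes in the text it added the call of ARR8 (adjusted p = 0.0189) and removed none. ACS11 lost its call in the 16 arrays of both mutants, without moderation, with quantile normalization and with median centring (adjusted p from 0.0592 to 0.073), and SAG24 (0.0754) and GSA1 (0.0631) lost theirs in those 16 arrays. In the contrast's own 4 arrays 20 genes in the text lost the call, 15 of which also lost it without 1 array. The other 5 were TIC55 (adjusted p = 0.0503), ARR5 (0.053), COR15B (0.0551), RTE1 (0.0668) and HAI1 (0.0685). An FDR under 0.01 removed 13 genes in the text. Leaving out 1 array gave 1303 to 1723 genes at 1 DAT, 24 to 238 at 0 DAT, 1248 to 6772 at 2 DAT, 1492 to 2207 at 3 DAT, and 352 to 916 and 79 to 344 for the changes, and the cause was not tested. At 2 DAT, the share of calls higher in ein2/ore3 was 37.6%, and 52.4% with quantile normalization and 57.5% with median centring. Of 116 called genes in the text, 93 stayed called without any 1 array and 23 did not. Directions turned for genes without a call, ARR3 (from -0.59 to 0.29), ARR9 (from -0.31 to 0.18), EMB3105 (-0.023 with quantile normalization, and from -0.075 to 0.095 without 1 array) and AHK3 (from -0.055 to 0.245 without 1 array). Differences within a slide rest on 1 array per mutant and have no test. Promoter sequences were not analysed here. With 2 arrays per condition and a median SE of 0.203, the smallest called difference was 0.29.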
